A study of Saccharomyces cerevisiae with 16 samples.

Results

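The cytosolic small ribosomal subunit genes of *Saccharomyces cerevisiae* were taken as every gene whose standard symbol in the S288C annotation is RPS followed by a number, with A or B where there are paralogs. This rule found 56 of the 7126 features counted, and all 56 passed the filter on low counts in every comparison. They encode 32 proteins, of which 24 are made from a pair of paralogous genes and 8 from a single gene. RNA-seq and ribosome profiling, which sequences the mRNA fragments protected by ribosomes, had been run on a BY4742 strain whose CDC33 gene, encoding the cap-binding factor eIF4E, carries a C-terminal auxin-inducible degron with a Flag tag. All libraries, controls included, came from this degron strain, and a parental strain without the degron was not analysed here. Cells growing in YPD at 30°C received 500 µM indole-3-acetic acid (IAA), the auxin that triggers loss of the tagged protein, or DMSO alone, for 1 h or 8 h, and there were 2 libraries for each of RNA and footprints in each of these 4 conditions. The labels call the 2 libraries biological replicates and do not say whether they came from separate cultures, so p-values measure only the spread between such libraries. RNA was selected by poly(A) at 1 h and depleted of rRNA at 8 h, and footprint libraries were also made by different protocols at the 2 times, so time and protocol cannot be told apart.

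The small (40S) subunit carries 18S rRNA and reads the mRNA, while the large (60S) subunit joins amino acids. In yeast the genes of both subunits are among the most highly transcribed, are controlled together by Rap1, Fhl1, Ifh1 and Sfp1, and are turned down when growth slows. Many are present as 2 copies left by a whole-genome duplication, and several copies control their own expression or that of their partner through splicing or mRNA decay.

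The targeted gene itself, CDC33, was measured in every library. Its RNA was 584 and 496 CPM in the IAA libraries, against 744 and 670.1 CPM in the DMSO libraries at 1 h, and 579 and 508 CPM with IAA, against 761 and 830 CPM with DMSO at 8 h, where CPM is a count scaled to a common library size with edgeR's TMM factors, set within an assay and time. CDC33 RNA was lower with IAA at both times (log2 fold changes -0.39, adjusted p = 0.0299 at 1 h, and -0.55, adjusted p = 0.032 at 8 h), while its footprints had log2 fold changes of -0.0079 and -0.062, neither of which passed. Since IAA removes the protein, these values do not check its depletion. The RNA libraries held 10182227 to 50294053 counts in genes and the footprint libraries 1766499 to 9985060. Every library had reads of the alpha-cell genes SAG1 and STE3, while no more than 37 counts fell on any of the 4 genes deleted in BY4742. The alpha-cell genes MFALPHA1 and MFALPHA2 were not found under these symbols. Some reads fell on a-cell genes. The most were on STE2, with 542 and 872 RNA counts with IAA at 1 h, against 147 and 203 with DMSO. A member gene had between 189 counts (RPS28B in the RNA library of IAA replicate 1 at 8 h) and 285667 counts (RPS31).

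Because most members come in pairs, what can be said of one copy depends on how far its sequence differs from the other. The coding sequences of the 2 copies were between 84.3 and 99.2% identical, and 9 of the 24 pairs encode the same protein. The 4 pairs whose copies differed most in their response (RPS28, RPS9, RPS14 and RPS26) are shown by the stretch of 30 coding bases in which the copies differ most, from the R64 reference, with capitals marking the bases that differ between the copies.
RPS28A: tccAgAacTattgtcagaaaCgtGaagggC
RPS28B: tccCgTacCattgtcagaaaTgtCaagggT
RPS9A: atTagGagaCtAgttagagtCggtgtTttA
RPS9B: atCagAagaTtGgttagagtTggtgtCttG
RPS14A: gcTtcTttCaacgatacTttCgtTcatgtt
RPS14B: gcCtcCttTaacgatacCttTgtAcatgtt
RPS26A: CaacagAgaAaacaaGgtttcCccTgcTgA
RPS26B: TaacagGgaTaacaaAgtttcTccAgcAgC

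These stretches lie in the coding exons, at chrXV:648870-648899 (minus strand) and chrXII:673239-673268 (plus strand) for the RPS28 pair, chrXVI:405679-405708 (plus strand) and chrII:605149-605178 (plus strand) for the RPS9 pair, chrIII:177824-177853 (minus strand) and chrX:74258-74287 (plus strand) for the RPS14 pair, and chrVII:148251-148280 (minus strand) and chrV:424260-424289 (plus strand) for the RPS26 pair. A read across any of them can be assigned to one copy. Of all 28-base stretches, about the length of a footprint, in the coding sequence, 93.2% in RPS28A, 88.2% in RPS9A, 72.5% in RPS14A and 91.2% in RPS26A were found nowhere else in the genome. At the other extreme stand the copies of RPS4, RPS6 and RPS24, in which only 16.4 to 38.3% of such stretches are unique. The RPS6 copies differ at 6 of 711 coding bases, and one of the many stretches they share is shown to make this plain.
RPS6A: gaacaccgtattcgtgttttcttcgacaag
RPS6B: gaacaccgtattcgtgttttcttcgacaag

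These stretches are at chrXVI:377912-377941 (minus strand) and chrII:592333-592362 (minus strand). For these 3 pairs copy A took 49.96 to 55.8% of the pair's footprint counts in every library, and 30.8 to 69.4% of its RNA counts. How footprints that match both copies were assigned is not given in the sources used here, and in the RNA files reads that matched several places were set apart, as 17.9 to 22.0% of all reads. The RNA counts of these 3 pairs leave such reads out, and a footprint count of one copy may hold reads of the other.

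Footprints were lower with IAA in 21 of the 56 small subunit genes at 1 h and in 40 at 8 h. For RNA few members passed with edgeR when libraries were not paired by replicate number, and more passed with DESeq2. For RNA at 1 h, 1 of the 56 genes was higher and 6 were lower in the edgeR quasi-likelihood test (Benjamini-Hochberg adjusted p under 0.05 over all genes tested), where 22.3% of all genes tested were higher and 21.4% lower. DESeq2, the tool the study's methods name, called 22 members lower in the same libraries. With the replicate number as a block, edgeR called 39 members lower and 1 higher at 1 h. The share of all genes called in these 2 fits was not taken. For RNA at 8 h none was higher and 2 were lower, against 10.7% and 10.3% of all genes. At an unadjusted p under 0.05, 4 members were higher for RNA at 8 h, and DESeq2 called 3. For footprints at 1 h, 7 were higher and 21 lower, against 11.3% and 14.8% of all genes. For footprints at 8 h none was higher and 40 were lower, against 11.8% and 13.6% of all genes, and with DESeq2 or at an unadjusted p under 0.05 none was higher either. The counts of footprint calls include near-identical copies that may share reads. Among the 48 members in which most 28-base stretches are unique, 14 (29.2%) were lower at 1 h and 32 (66.7%) at 8 h. Of the same 48, 7 were higher at 1 h and none at 8 h. The median log2 fold change of the 56 genes was -0.22 at 1 h and -0.14 at 8 h for RNA. In footprints it was -0.10 at 1 h and -0.36 at 8 h, while the median of all genes tested lay within 0.01 of zero in these 4 comparisons.

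**Figure D1:**
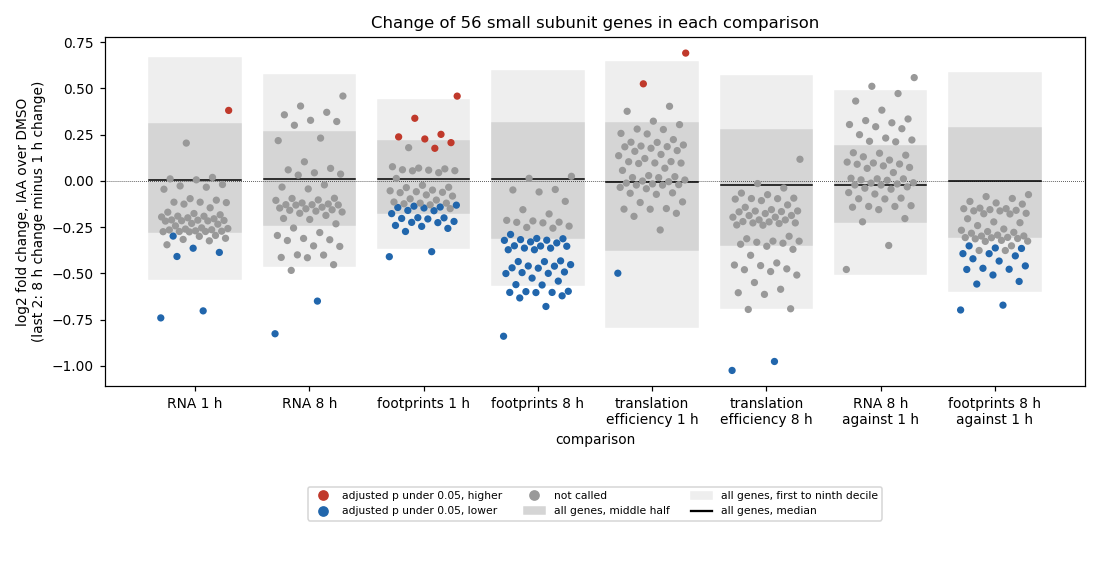
Log2 fold change of each of the 56 small subunit genes (points), IAA over DMSO, in each comparison, with the last 2 columns giving the change at 8 h minus that at 1 h. Grey boxes give the spread of all genes tested. The footprint points at 8 h lie almost wholly below 0, with 40 of 56 called lower, and the RNA points spread around a median of -0.22 at 1 h and -0.14 at 8 h.

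The 2 IAA libraries lay below both DMSO libraries in 49 of 56 members for footprints at 8 h, where this held for 30.2% of all genes, and in none did both lie above, against 31% of all genes. For RNA at 1 h the IAA libraries lay below both DMSO libraries in 40 of 56 members, against 36.6% of all genes, and above them in 2, against 38.6%. The corresponding numbers were 23 below and 6 above for RNA at 8 h, where the background was 30.3% and 32.5%, and 29 below and 13 above for footprints at 1 h, where it was 30.2% and 31.3%. The members took 8.51 and 8.55% of all gene counts in the IAA footprint libraries at 1 h, against 8.37 and 7.98% in the DMSO libraries, and 12.2 and 13.1% in the IAA libraries at 8 h, against 13.7 and 13.9%. Their share of all footprints was thus not lower with IAA at 1 h. Scaled by total counts rather than by TMM, the median of all genes moved up to 0.19 and 0.27 in footprints at 1 h and 8 h, and to 0.23 in RNA at 1 h, and the members' median stood 0.11, 0.37 and 0.23 below it. On that scale the footprints of 22 members were higher and of 2 lower at 1 h, while at 8 h 2 were higher and 12 lower. RNA was then higher in 4 members and lower in 2 at 1 h. The directions given below are relative to the middle of all genes.

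**Figure D2:**
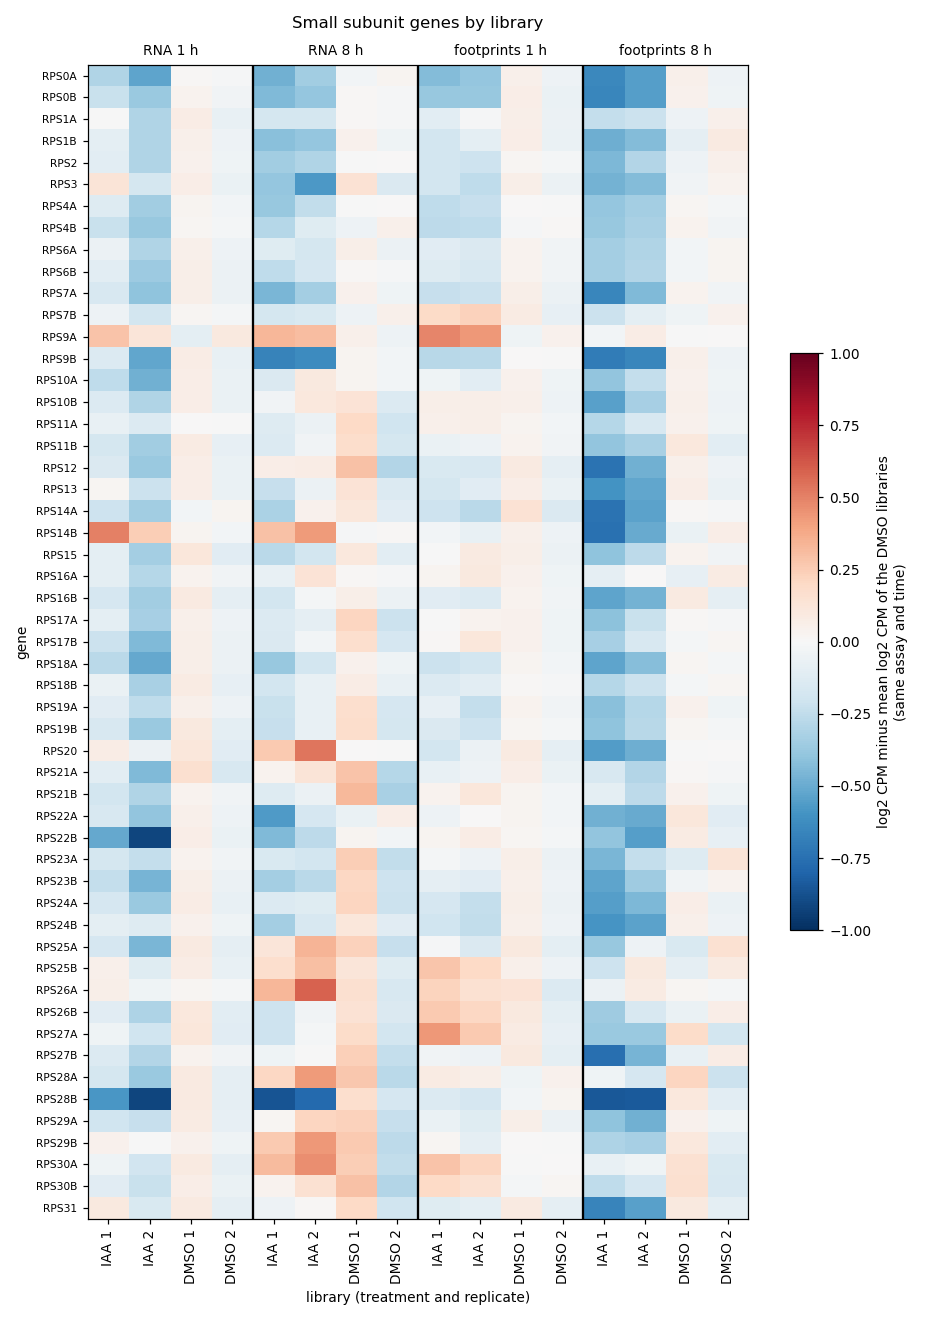
Log2 CPM of the small subunit genes reported by name (rows) in each of the 16 libraries (columns), after subtracting the mean of the 2 DMSO libraries of the same assay and time. Blue is lower and red higher than DMSO. Footprints at 8 h are blue in both IAA libraries for almost every gene, RPS9A and RPS14B are red in RNA at both times, and the RNA libraries of one group differ from each other in most genes.

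Among RNA at 1 h, the largest falls were those of RPS28B and RPS22B. RPS28B encodes eS28, a protein of the head of the subunit by the mRNA exit channel, and its RNA was 311 and 246 CPM in the IAA libraries, against 495 and 436 CPM in the DMSO libraries (log2 fold change -0.74, SE 0.13, adjusted p = 0.0058). RPS22B encodes uS8, a core protein of the body that binds 18S rRNA early in assembly, and its RNA was 335 and 253 CPM in the IAA libraries, against 499 and 457 CPM in the DMSO libraries (log2 fold change -0.70, SE 0.14, adjusted p = 0.0103). In both genes the 2 groups of libraries did not overlap, and the call held on leaving out any one library. An intron between the coding exons of RPS22B holds the small nucleolar RNA gene snR44. The counts of snR44 were 19.9 and 17.9 CPM in the IAA libraries, against 23.6 and 22.4 CPM in the DMSO libraries (-0.29, adjusted p = 0.0726), which did not pass. RPS0A, encoding uS2, a protein of the solvent side of the 40S needed in its late maturation, had 1795 and 1529 CPM in the IAA libraries, against 2225 and 2189 CPM in the DMSO libraries (log2 fold change -0.41, SE 0.12, adjusted p = 0.034). RPS10A (eS10) and RPS18A (uS13), both of the head, had log2 fold changes of -0.36, adjusted p = 0.0476, and -0.39, adjusted p = 0.0442. The 1 gene that rose was RPS14B, the minor of the 2 genes for uS11, a protein of the platform, with 347 and 290 CPM in the IAA libraries, against 249 and 240.2 CPM in the DMSO libraries (log2 fold change 0.38, SE 0.10, adjusted p = 0.0212).

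These calls rested partly on single libraries. RNA of 55 of the 56 members was higher in replicate 1 than in replicate 2 of the IAA group at 1 h, by a median of 1.15-fold. The DMSO group at 1 h had the same direction in 54 of 56 members, by a median of 1.09-fold. Without IAA replicate 1, 28 members were lower and none higher, and RPS14B lost its call. Without DMSO replicate 1, without DMSO replicate 2 or without IAA replicate 2, 2 members were lower in each case, and the calls of RPS0A, RPS10A and RPS18A were lost.

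RNA at 8 h gave 2 calls, both falls. RPS28B had 15.5 and 16.5 CPM in the IAA libraries, against 31.8 and 25.3 CPM in the DMSO libraries (log2 fold change -0.83, SE 0.16, adjusted p = 0.00681), so that the lower group did not reach the higher one at either time. RPS9B, the major gene for uS4, a body protein at the mRNA entry channel that bears on decoding accuracy, had 1788 and 1837 CPM in the IAA libraries, against 2893 and 2796 CPM in the DMSO libraries (log2 fold change -0.65, SE 0.16, adjusted p = 0.0175). Without DMSO replicate 1, IAA replicate 1 or IAA replicate 2 a single member was lower in each case, and the call of RPS9B was lost, while without DMSO replicate 2, 3 members were lower. In the DMSO group 49 of 56 members were higher in replicate 1 than in replicate 2, by a median log2 difference of 0.23. The difference was 0.51 in the 10 members with a coding sequence under 300 bases. In the IAA group 6 of 56 were higher in replicate 1, with a median log2 difference of -0.11. A fit of the same comparison with DESeq2 called 11 members lower, and one that shared the spread with the 1 h libraries called 8.

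Footprints at 1 h moved both ways. RPS9A, the minor uS4 gene, rose most, with 729.5 and 702 CPM in the IAA libraries, against 505 and 537 CPM in the DMSO libraries (log2 fold change 0.46, SE 0.057, adjusted p = 2.65e-08). RPS27A, for eS27, a zinc-binding protein of the body, had 360.3 and 320.3 CPM in the IAA libraries, against 283 and 253 CPM in the DMSO libraries (log2 fold change 0.34, SE 0.062, adjusted p = 5.17e-05), RPS30A, for eS30, had 637 and 607 CPM in the IAA libraries, against 520.2 and 524 CPM in the DMSO libraries (0.25, adjusted p = 0.000649), and RPS25B, for eS25, had 589 and 556 CPM in the IAA libraries, against 501 and 469 CPM in the DMSO libraries (0.24, adjusted p = 0.00161). None of these 4 genes had overlapping groups. The remaining rises were RPS26B at 0.23, RPS7B at 0.21 and RPS30B at 0.18 on the log2 scale.

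The falls in footprints at 1 h were led by both genes for uS2. RPS0A had 1423 and 1473 CPM in the IAA libraries, against 1987 and 1861 CPM in the DMSO libraries (log2 fold change -0.41, SE 0.052, adjusted p = 4.19e-08) and RPS0B had 1724 and 1720.1 CPM in the IAA libraries, against 2343 and 2147 CPM in the DMSO libraries (log2 fold change -0.38, SE 0.052, adjusted p = 1.60e-07). RPS9B had 2002 and 2015 CPM in the IAA libraries, against 2435 and 2422 CPM in the DMSO libraries (log2 fold change -0.27, SE 0.049, adjusted p = 2.91e-05), so that the 2 genes for uS4 moved in opposite directions. RPS4B, of the near-identical pair for eS4, had 3379.7 and 3408 CPM in the IAA libraries, against 4027 and 4084 CPM in the DMSO libraries (-0.26, adjusted p = 3.08e-05). The other 17 genes that fell had log2 fold changes between -0.13 and -0.25, and among them were RPS2 and RPS3, encoding uS5 and uS3, which line the path of the mRNA. Without IAA replicate 2 the number of members lower was 7, without IAA replicate 1 it was 12, without DMSO replicate 1 it was 13 and without DMSO replicate 2 it was 27. Without IAA replicate 1, 4 members were higher. A fit that shared the spread with the 8 h libraries called 1 higher and 5 lower, and DESeq2 13 lower. Where copies were kept apart, RPS0A, RPS0B and RPS9A kept their calls under every alternative but a minimum log2 fold change of 0.58. No member reached that minimum. With copies summed, RPS0 was lower (-0.39) and RPS9 was not called (-0.11).

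Footprints at 8 h fell in 40 genes. RPS28B again led, with 201 and 203 CPM in the IAA libraries, against 391 and 337 CPM in the DMSO libraries (log2 fold change -0.84, SE 0.12, adjusted p = 7.48e-10). RPS9B had 2236 and 2309 CPM in the IAA libraries, against 3759 and 3520.3 CPM in the DMSO libraries (log2 fold change -0.68, SE 0.11, adjusted p = 2.37e-08) and RPS14A, the major uS11 gene, had 2221 and 2547 CPM in the IAA libraries, against 3721 and 3674 CPM in the DMSO libraries (log2 fold change -0.63, SE 0.11, adjusted p = 2.33e-07). RPS31, which makes eS31 as a fusion with ubiquitin, had 3807 and 4126 CPM in the IAA libraries, against 6426 and 5629.8 CPM in the DMSO libraries (log2 fold change -0.60, SE 0.11, adjusted p = 5.84e-07). In all 4 the groups were well apart. RPS14B, RPS0A, RPS0B, RPS12 and RPS27B followed with log2 fold changes of -0.62, -0.60, -0.60, -0.60 and -0.60.

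The 16 genes not called for footprints at 8 h had values between -0.26 and 0.02. Closest to no change were RPS9A, with 673 and 722 CPM in the IAA libraries, against 685 and 686 CPM in the DMSO libraries (0.025, adjusted p = 0.911), RPS26A, with 2744 and 3028 CPM with IAA, against 2892 and 2828 CPM with DMSO (0.014, adjusted p = 0.949), and RPS16A, with 1544 and 1649 CPM with IAA, against 1556 and 1738 CPM with DMSO (-0.047, adjusted p = 0.811). Each of these is 1 of a pair whose other copy had a lower value. With the counts of the copies added up, 28 of 32 proteins were lower and none higher. The number of members lower was 25 without IAA replicate 1 and 26 without DMSO replicate 1, the shallowest footprint library, and 33 and 38 without the other 2 libraries. With a minimum log2 fold change of 0.58, 9 members were lower. Of the 37 calls of members reported by name, 12 held under every other alternative. They were those of RPS0A, RPS0B, RPS7A, RPS9B, RPS12, RPS13, RPS14A, RPS14B, RPS24B, RPS27B, RPS28B and RPS31. With copies summed, the call is that of the protein, and the protein of each of these genes was lower.

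Translation efficiency, the footprint change beyond the RNA change of the same gene, was tested as the interaction of assay and treatment over the 8 libraries of a time. At 1 h it was higher for 2 members and lower for 1, against 10.3% and 10.9% of all genes, and the median of the members was 0.081. It was higher for RPS22B (log2 fold change 0.69, SE 0.16, adjusted p = 0.0114), whose footprints were 341 and 352 CPM with IAA, against 338 and 329 CPM with DMSO (0.054, adjusted p = 0.531) while its RNA fell. RPS28B likewise had an RNA fall with less change in footprints, 206 and 202 CPM with IAA, against 222 and 230.4 CPM with DMSO, and a higher efficiency (log2 fold change 0.52, SE 0.15, adjusted p = 0.0247). RPS14B showed the reverse, with footprints of 554 and 535 CPM with IAA, against 583 and 546 CPM with DMSO while its RNA rose, and a lower efficiency (log2 fold change -0.50, SE 0.13, adjusted p = 0.0141). These calls were lost without either IAA footprint library, which left no member higher or lower in either case. Without DMSO footprint replicate 1 there was 1 higher and none lower, and without DMSO footprint replicate 2 none was higher and 1 lower. Without RNA IAA replicate 1, 18 members were higher, without RNA DMSO replicate 2, 5 were higher, and without RNA IAA replicate 2, 2 were lower.

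At 8 h the estimated translation efficiency was negative for 55 of 56 members, with a median of -0.23 against -0.024 for all genes, but only 2 members passed, both lower, where 3.73% of all genes were higher and 2.22% lower. RPS14B had RNA of 463 and 507 CPM with IAA, against 375 and 382 CPM with DMSO, and footprints of 740.4 and 875 CPM with IAA, against 1186 and 1296 CPM with DMSO (log2 fold change -1.02, SE 0.19, adjusted p = 0.0043). RPS20, a single-copy gene for uS10, a head protein that is ubiquitinated by Hel2 when ribosomes collide, had RNA of 4696 and 5698 CPM with IAA, against 3939.6 and 3914 CPM with DMSO and footprints of 2400.4 and 2518 CPM with IAA, against 3538 and 3543 CPM with DMSO (log2 fold change -0.98, SE 0.18, adjusted p = 0.00518). In both genes the RNA of both IAA libraries lay above, and the footprints below, those of the DMSO libraries. Without footprint IAA replicate 1 neither was called, without RNA IAA replicate 1 there were 4 lower, and without RNA DMSO replicate 1 there were 17. DESeq2 called 10 lower and none higher, and none was higher at an unadjusted p under 0.05.

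Whether the response differed between the times was tested as the interaction of time and treatment within an assay. For RNA no member passed in either direction, where 1.07% of all genes had a higher response at 8 h than at 1 h and 0.589% a lower one. At an unadjusted p under 0.05, 1 member had a higher response and none a lower one, and DESeq2 called none. For footprints 17 members had a lower response at 8 h than at 1 h and none a higher one, against 5.03% and 8.05% of all genes, and all 56 values were negative, with a median of -0.30 against -0.0031 for all genes. RPS28B differed most by adjusted p (log2 fold change -0.67, SE 0.13, adjusted p = 0.00126). RPS27A footprints were higher with IAA at 1 h, and at 8 h they were 507 and 508 CPM in the IAA libraries, against 744 and 579 CPM in the DMSO libraries (log2 fold change -0.37, SE 0.12, adjusted p = 0.0111), so its difference between the times was -0.70, adjusted p = 0.00337. That 8 h call was kept in 7 of 11 alternatives. RPS14B and RPS27B had differences of -0.56, adjusted p = 0.00455, and -0.54, adjusted p = 0.00817. The number of members was 1 without IAA replicate 1 at 1 h, 3 without IAA replicate 2 at 1 h, 4 without DMSO replicate 2 at 1 h, 10 without IAA replicate 1 at 8 h, and 26 without IAA replicate 2 at 8 h. RPS28B was the one call that held in all of these.

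The copies of most pairs had similar changes. The absolute difference in log2 fold change between copy A and copy B was under 0.2 in 16 of 24 pairs for RNA at either time, with medians of 0.15 at 1 h and 0.13 at 8 h. It was under 0.2 in 19 pairs for footprints at 1 h and in 16 at 8 h, with medians of 0.079 and 0.12. No test was made of these differences, since the pairs were picked for them. The largest was that of RPS28, 1.13 for RNA at 8 h. RPS28A and RPS28B differ by 1 amino acid, and in yeast eS28 is known to bind the 3′ UTR of RPS28B mRNA and to promote its decay. RPS28A had 82.6 and 95.8 CPM in the IAA libraries, against 86.2 and 59.3 CPM in the DMSO libraries (0.30, adjusted p = 0.232), which did not pass, where RPS28B fell. The share of RPS28A in the RNA counts of the pair at 8 h was 84.2 and 85.3% in the IAA libraries, against 73.1 and 70.1% in the DMSO libraries. Its share in the footprint counts at 8 h was 78.6 and 77.0% in the IAA libraries, against 69.3 and 66.2% in the DMSO libraries. Its share in the RNA counts at 1 h was 72.5 and 74.3% in the IAA libraries, against 66.5 and 66.5% in the DMSO libraries. The IAA libraries were thus above the DMSO libraries in all 3 cases.

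**Figure D3:**
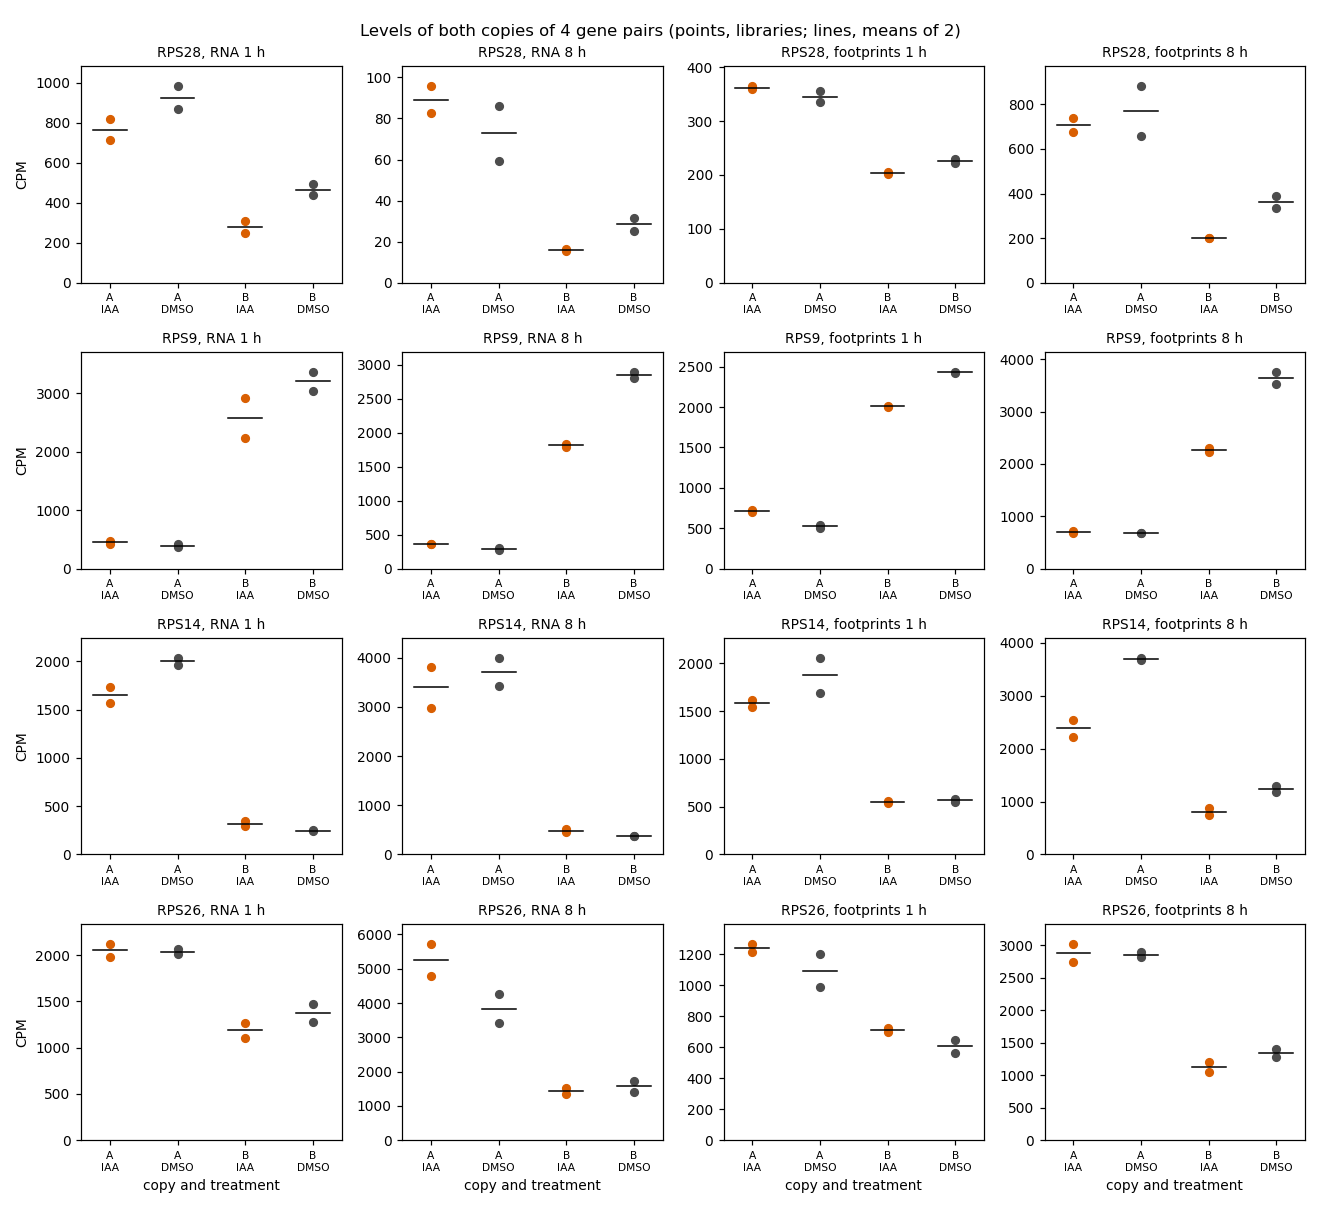
CPM of copy A and copy B of the RPS28, RPS9, RPS14 and RPS26 pairs in each assay and time, with IAA (orange) left of DMSO (grey), a point for each library and a line for the mean of the 2. Both RPS28B points of IAA lie under those of DMSO in each of the 4 panels of that row, while the RPS28A points lie under them in RNA at 1 h only. The RPS9B points of IAA lie under those of DMSO in its 4 panels and the RPS9A points in none.

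In the RPS9 pair it was the major copy, RPS9B, that fell in RNA at 8 h and in footprints at both times, and not the minor one. RPS9A RNA was 480.5 and 428 CPM with IAA, against 369 and 420 CPM with DMSO at 1 h (0.20, adjusted p = 0.149) and 363 and 359 CPM with IAA, against 299 and 278 CPM with DMSO at 8 h (0.32, adjusted p = 0.118), and neither passed. Its share of the pair's RNA counts was 14.1 and 16.1% in the IAA libraries, against 9.86 and 12.1% in the DMSO libraries at 1 h, and 16.9 and 16.3% in the IAA libraries, against 9.38 and 9.06% in the DMSO libraries at 8 h. Its share of the footprint counts was 26.7 and 25.8% in the IAA libraries, against 17.2 and 18.1% in the DMSO libraries at 1 h, and 23.1 and 23.8% in the IAA libraries, against 15.4 and 16.3% in the DMSO libraries at 8 h. The share was higher with IAA in every one of these comparisons. Both genes have an intron, and in yeast uS4 is known to limit the splicing of the RPS9A transcript.

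For RPS14, a known case of a ribosomal protein that binds the intron-bearing transcript of its own gene (RPS14B) and blocks its splicing, the RNA of the minor copy was called higher at 1 h and not at 8 h (0.36, adjusted p = 0.104). The share of RPS14A in the RNA counts of the pair was 83.3 and 84.4% in the IAA libraries, against 88.8 and 89.5% in the DMSO libraries at 1 h, and 86.5 and 88.3% in the IAA libraries, against 91.4 and 90.0% in the DMSO libraries at 8 h, so that the share of RPS14B was larger in the IAA libraries, a difference that was not tested. The share of RPS14A in the footprint counts was 74.5 and 74.3% in the IAA libraries, against 77.9 and 75.6% in the DMSO libraries at 1 h, a smaller gap, and 75.0 and 74.4% in the IAA libraries, against 75.8 and 73.9% in the DMSO libraries at 8 h, where the groups overlapped. RPS14A RNA itself had 1732 and 1574 CPM with IAA, against 1965 and 2038 CPM with DMSO at 1 h (-0.28, adjusted p = 0.088), which did not pass. For RPS26 (eS26, at the mRNA exit channel), RPS26A RNA was 4785 and 5732 CPM with IAA, against 4250.4 and 3404 CPM with DMSO at 8 h (0.46, adjusted p = 0.106) and RPS26B RNA was 1359 and 1528 CPM with IAA, against 1730.3 and 1418 CPM with DMSO (-0.13, adjusted p = 0.644), with no call for either. The share of RPS26A in the RNA counts of the pair was 77.9 and 79.0% in the IAA libraries, against 71.1 and 70.6% in the DMSO libraries at 8 h.

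**Figure D4:**
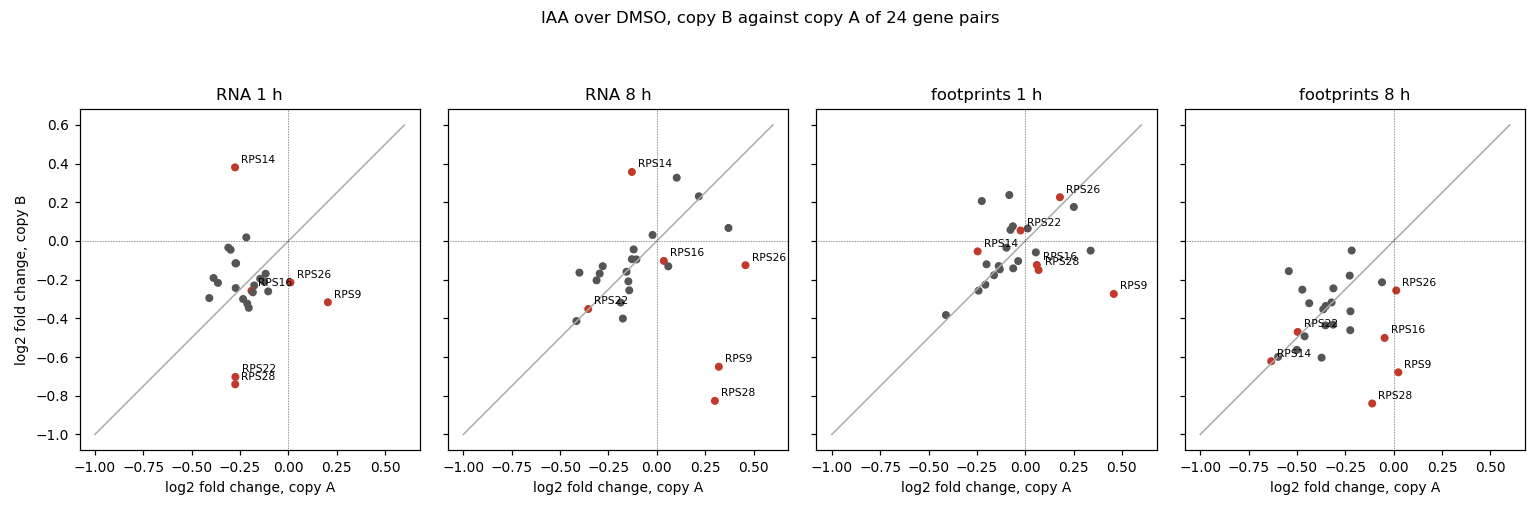
Log2 fold change, IAA over DMSO, of copy B (vertical axis) against copy A (horizontal axis) for 24 gene pairs in RNA and footprints at 1 h and 8 h, with a diagonal where both are equal and 6 pairs named. RPS28 and RPS9 lie below the diagonal in all 4 panels, and RPS14 lies above it in RNA at both times and in footprints at 1 h, and close to it in footprints at 8 h.

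The 8 single-copy genes, whose reads are free of this difficulty apart from the ubiquitin part of RPS31, were all called lower in footprints at 8 h, with a median of -0.49. Among these are RPS2, RPS3, RPS12, RPS13, RPS15, RPS20 and RPS31. At 1 h 5 of the 8 fell in footprints, among them RPS2, RPS3, RPS12 and RPS13, and none passed for RNA at either time. The paired genes had 32 of 48 called lower at 8 h, with a median of -0.35. Grouped by place in the subunit, 16 of 22 head genes and 24 of 34 body genes were lower in footprints at 8 h, with medians of -0.33 and -0.37. Genes with an intron between coding exons had 26 of 36 lower and a median of -0.36, and genes without such an intron 14 of 20 and -0.40. Introns in untranslated regions were not counted.

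Per kilobase of coding sequence counted, the levels of the members spanned a wide range. In the DMSO footprint libraries at 8 h they ran from 1284 CPM per kilobase (RPS9A) to 15108 (RPS31), with a median of 6835, and in the IAA libraries from 1265 (RPS22B) to 9941 (RPS31), with a median of 5105. At 1 h the medians were 3459 in IAA and 3630 in DMSO footprint libraries, with RPS20 the highest in both, at 6180 and 6720. RPS28B was the lowest in RNA at 8 h, at 78.6 CPM per kilobase with IAA and 139.8 with DMSO.

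The changes went with coding length, with opposite signs in different comparisons. Over the 56 genes, Spearman's rho between coding length and log2 fold change was -0.60 in RNA at 8 h, -0.56 in footprints at 1 h, -0.54 in translation efficiency at 1 h and 0.49 in translation efficiency at 8 h. It was -0.013 in RNA at 1 h and -0.16 in footprints at 8 h. Over the other genes tested (4944 to 5698 in these comparisons), with length taken as codons counted, rho was 0.021, -0.089, -0.15, 0.38, 0.12 and 0.45 in the same order. These values describe genes measured in the same libraries, which are not independent of each other. Of the 17 members with a coding sequence of 500 bases or more, 13 fell in footprints at 1 h and 2 rose, and of the 10 under 300 bases none fell and 3 rose. For translation efficiency at 8 h the medians were -0.16 in the long genes and -0.40 in those under 300 bases. The replicate libraries also differed most in short genes for RNA at 8 h, as given above, and the part of length in these results was not tested.

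**Figure D5:**
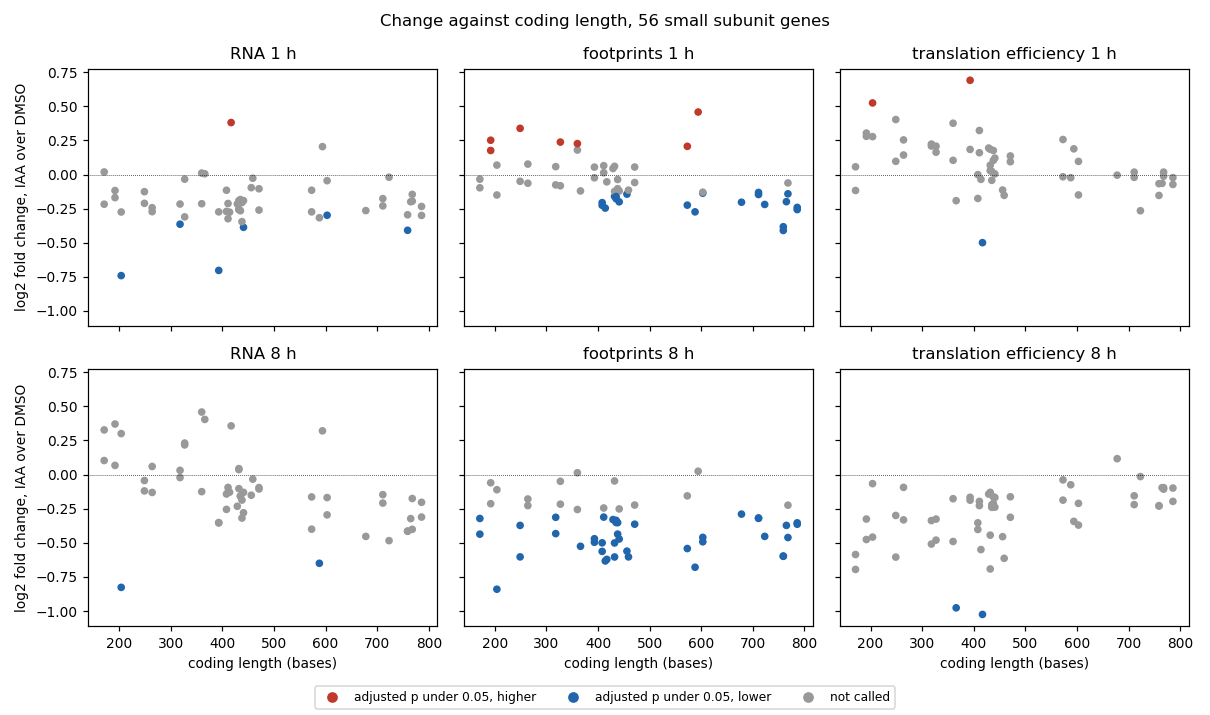
Log2 fold change, IAA over DMSO, against coding length in bases for the 56 genes, with 1 h in the upper row and 8 h in the lower row. Footprints at 1 h are higher in some short genes and lower in most long ones, RNA at 8 h declines with length, and footprints at 8 h are low at every length.

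For the genes of the large subunit the counts were close to those of the small one. Of 76, 57 were lower and 2 higher in footprints at 8 h (75 tested), with a median of -0.44, and 27 were lower and 10 higher at 1 h, with a median of -0.094. For RNA 8 were lower at 1 h and 5 at 8 h, none was higher, and the medians were -0.19 and -0.13. Of 2 further proteins bound to the 40S, ASC1, the RACK1 homolog of the head, had footprints of 3579 and 3456 CPM with IAA, against 5550.5 and 5211 CPM with DMSO at 8 h (-0.61, adjusted p = 3.96e-07), and STM1, which clamps idle ribosomes, had footprints of 1601 and 1735 CPM with IAA, against 2045 and 2285 CPM with DMSO (-0.38, adjusted p = 0.0045). Both also fell in footprints at 1 h. Their RNA was lower with IAA too. At 8 h STM1 RNA was 1903 and 1835 CPM with IAA, against 2885 and 2919 CPM with DMSO. ASC1 RNA was 2167 and 2070.5 CPM with IAA, against 2717 and 2837 CPM with DMSO. In RNA 1 of the 2 genes was called lower at each time, where 21.4% of all genes were lower at 1 h and 10.3% at 8 h.

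Among 22 factors that assemble the small subunit, 7 were higher and 1 lower in footprints at 8 h, with a median of 0.23, where 11.8% of all genes were higher and 13.6% lower. At 1 h 3 were higher and 1 lower in footprints, with a median of 0.0093, and the share higher was near the 11.3% of all genes. RRP12, an export factor of the precursor, had 0.71, adjusted p = 7.51e-06 at 8 h, and NOB1, the nuclease that makes the 3′ end of 18S rRNA, had 0.66, adjusted p = 0.001. For RNA 3 were higher and 2 lower at 1 h, smaller shares than the 22.3% and 21.4% of all genes, and 1 was higher and 2 lower at 8 h, against 10.7% and 10.3%. Of 9 regulators of ribosomal protein gene transcription, 4 were higher in RNA at 1 h and none lower, against 22.3% and 21.4% of all genes, among them CRF1, known as a corepressor of these genes, at 1.28, adjusted p = 0.00266, and FHL1, at 0.39, adjusted p = 0.00391. None of the 9 passed for RNA at 8 h, and IFH1, the coactivator, was higher in footprints at 8 h (0.87, adjusted p = 0.000331). Of 7 enzymes that modify proteins of the 40S, 2 were higher and 1 lower in footprints at 8 h, against 11.8% and 13.6% of all genes, the higher ones being MOT2 (also called NOT4), which ubiquitinates eS7, at 0.64, adjusted p = 0.00163, and TPA1, at 0.43, adjusted p = 0.0125.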

How the data were processed

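Per the labels, RNA-seq and ribosome profiling libraries of the eIF4E degron strain were made from cells given IAA or DMSO for 1 or 8 h. The submitters' processing notes name cutadapt and STAR, the build was R64, and neither the counting tool nor whether it used strand is given in the sources used here. The authors deposited whole-number counts per gene without normalisation, and footprint counts leave out the first 20 codons. Entries of the RNA files that name no gene (21.7 to 31.2% of reads, reads with several matches included) were left out.

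Groups came from the labels. Counts were filtered (filterByExpr), scaled with TMM and tested in edgeR 4.0.16 (R 4.3.3) by the robust quasi-likelihood test, with Benjamini-Hochberg adjustment over all genes tested and a threshold of 0.05. The study's methods name DESeq2, which was run as an alternative (version 1.42.0). IAA was compared with DMSO in fits of 4 libraries for each assay and time, and the interactions of treatment with assay or with time in fits of 8. Replicates were not copies, as their counts differed by a chi-square per degree of freedom of 1.39 to 51.8. The fits were tested on simulated data. Counts rest on PCR reads without a count of molecules, so precision was taken from the libraries.

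Gene symbols came from the RefSeq R64 annotation, which matched 6048 of 7126 features. The genes named were, in each comparison, up to 4 with the smallest adjusted p in each direction, both copies of the 4 pairs that differed most, and up to 2 from each further list. Some members were tested with the rest and are not reported here by name. The members and lists were chosen with earlier results of these data known. RPS26A, RPS16A and the genes of the length and share comparisons were named after their values were seen. Alternatives were DESeq2, its size factors, total-count scaling, TMM from genes other than ribosomal protein genes, no filter, a minimum log2 fold change of 0.58, summed copies, each library left out, a replicate block and the 8 libraries of an assay in one fit. A group left with 1 library by such an omission took its spread from the other groups. Figures were drawn with matplotlib 3.10.9 in Python 3.11.15.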

Additional observations from a re-analysis of the deposited data

Results flagged for a closer look

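The change in footprints with IAA differed between 8 h and 1 h in 17 of the 56 small subunit genes, by the edgeR test of the interaction of time and treatment, with a lower response at 8 h in each. Of all genes tested, 5.03% had a lower response at 8 h and 8.05% a higher one. Among the calls reported by name, only that of RPS28B held on leaving out any one library. Among the differences between the log2 fold changes were -0.70 for RPS27A, -0.67 for RPS28B, -0.56 for RPS14B, -0.54 for RPS27B, -0.42 for RPS9A, -0.39 for RPS9B, -0.48 for RPS10B, -0.43 for RPS12, -0.41 for RPS13, -0.36 for RPS15, -0.37 for RPS16B, -0.39 for RPS20, -0.46 for RPS22A, -0.51 for RPS22B, -0.47 for RPS26B and -0.48 for RPS31. RPS9A, RPS26B and RPS27A were higher with IAA at 1 h in their own test and not at 8 h, where RPS27A was lower. The 8 h call of RPS27A was kept in 7 of 11 alternatives, with log2 fold changes from -0.57 to -0.10. The footprint libraries of the 2 times were made by different protocols, so time and protocol cannot be told apart. Groups of 2 libraries are too small for a check of single libraries that stand apart.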

How the results depend on the processing

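Where copies were kept apart, the direction of the called members reported here was kept under every alternative but total-count scaling. On that scale 7 genes lower in footprints at 1 h turned positive. Their log2 fold changes were then 0.041 for RPS1B, 0.051 for RPS6A, 0.035 for RPS6B, 0.023 for RPS12, 0.039 for RPS13, 0.021 for RPS19A and 0.0048 for RPS19B. With copies summed, some proteins had the opposite sign to their called copy, and none of these was called. Among them were RPS28 against RPS28B in RNA at 8 h (0.058) and RPS14 against RPS14B in RNA at 1 h (-0.19). In footprints at 1 h they were RPS9 against RPS9A (-0.11) and RPS7 against RPS7B (-0.067). The replicate numbers were not taken to pair the libraries, since there are only 2 pairs. Deviations of same-numbered libraries correlated at 0.488 and 0.462 for RNA at 1 h and 8 h, and at 0.0309 and 0.0429 for footprints. Over all genes tested, RNA libraries of the same number thus deviated together in part, and the main RNA counts take no account of this. For the members this held at 1 h, where replicate 1 was higher in 54 of 56 with DMSO and 55 of 56 with IAA. At 8 h replicate 1 was higher in 49 of 56 with DMSO but in 6 of 56 with IAA.

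With a minimum log2 fold change of 0.58, no member was higher and 2 lower for RNA at 1 h, none passed for footprints at 1 h, 9 were lower for footprints at 8 h, 1 was higher and none lower for translation efficiency at 1 h, and 2 were lower for the time difference of footprints. With DESeq2 the numbers lower were 22 and 11 for RNA at 1 h and 8 h, 13 for footprints at 1 h and 10 for translation efficiency at 8 h, and 3 were higher for RNA at 8 h. With total-count scaling, 4 were higher and 2 lower for RNA at 1 h, 1 higher for RNA at 8 h, 22 higher and 2 lower for footprints at 1 h, 2 higher and 12 lower for footprints at 8 h, and 9 higher for translation efficiency at 1 h. With copies summed, for 32 proteins, none was higher and 1 lower for RNA at 1 h, 1 lower for RNA at 8 h, 2 higher and 13 lower for footprints at 1 h, none higher or lower for translation efficiency at 1 h, 1 lower at 8 h, and 9 lower for the time difference of footprints. With a replicate block, 39 were lower for RNA at 1 h and 1 for RNA at 8 h. For translation efficiency at 1 h, 10 were then higher and 2 lower. A further fit of translation efficiency took treatment and replicate number as a block shared by both assays. The labels do not say whether such RNA and footprint libraries came from one culture. That fit called 4 members higher at 1 h and 15 lower at 8 h. In fits of the 8 libraries of an assay, 8 were lower for RNA at 8 h and 1 higher and 5 lower for footprints at 1 h. Changing the size factors, the genes used for TMM or the filter moved no count by over 1.5 times.

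Leaving out 1 library gave 0 to 1 higher and 2 to 28 lower for RNA at 1 h, 0 to 2 higher and 1 to 3 lower for RNA at 8 h, 4 to 7 higher and 7 to 27 lower for footprints at 1 h, 25 to 38 lower for footprints at 8 h, 0 to 18 higher and 0 to 2 lower for translation efficiency at 1 h, 0 to 17 lower at 8 h, and 1 to 26 lower for the time difference of footprints. The cause of these differences was not tested. Fewer libraries remain in such fits.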
